A study of Homo sapiens with 24 samples.

Results

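Isolated intergenic H3K27ac regions are stretches of acetylated or testable chromatin to which the study's own annotation gave no overlapping gene and no flanking gene on either side. They were taken from the deposited comparison of shANCO1 with shCTRL in each line, as all regions narrower than 3000 bp whose overlap, left and right gene fields were empty. In 10A 7648 of 50284 regions met this rule (15.2%), and in DCIS 6573 of 44790 (14.7%), which made 14221 of 95074 regions in both lines. The rule used position and width and no measured change. Isolated regions of 2800 to 2999 bp, just inside the width limit, numbered 137 in 10A with a median log2 fold change of 0.94 and 121 in DCIS with a median of 0.89. Those of 3000 to 3199 bp, just outside it, numbered 123 with a median of 0.89 and 89 with a median of 0.57.

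H3K27ac was profiled by chromatin immunoprecipitation and sequencing in 2 established human mammary epithelial lines. The line 10A (MCF10A) is non-tumorigenic, and DCIS (MCFDCIS) is a derivative of that lineage that forms lesions like ductal carcinoma in situ in mice. Each line carried a lentiviral hairpin against ANCO1 (shANCO1), the chromatin regulator encoded by ANKRD11, or a control hairpin (shCTRL), which the deposited tables name shGFP. There were 24 libraries in 8 groups of 3, namely H3K27ac immunoprecipitation and input chromatin for each line and hairpin. All cells, controls included, went through infection and puromycin selection and grew in medium with horse serum, epidermal growth factor, hydrocortisone, insulin and cholera toxin. No cloning step was described, so each group is best read as a selected pool of 1 line, and the tables do not measure ANCO1 itself. The labels number the libraries of a group but do not say that they came from separate cultures, so the deposited p-values may measure technical spread.

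Acetylation of lysine 27 of histone H3 is laid down by p300 and CBP, is removed by histone deacetylases, and marks active promoters and active enhancers. Enhancers are stretches of DNA bound by transcription factors that raise transcription of a gene that can lie far away, and those far from any gene are called distal or intergenic. ANCO1 is known to bind coactivators and histone deacetylases. In epithelial cells many distal enhancers hold binding sequences for AP-1, the dimers of JUN and FOS proteins, and for TEAD, the partner of YAP in the Hippo pathway.

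The sequences below show the regions on which the results turn, on the plus strand of GRCh38 with capitals for a match to AP-1 (TGACTCA or TGAGTCA) or to TEAD (GGAATGC or GGAATGT). The first set gives the centre 200 bp of the largest gain in 10A and the largest loss in DCIS among regions with at least 5 windows and, between the IL1B and IL37 genes, a DCIS region chosen for its low FDR. None of these 3 windows holds a match to either consensus.
chr5:98309951-98310150: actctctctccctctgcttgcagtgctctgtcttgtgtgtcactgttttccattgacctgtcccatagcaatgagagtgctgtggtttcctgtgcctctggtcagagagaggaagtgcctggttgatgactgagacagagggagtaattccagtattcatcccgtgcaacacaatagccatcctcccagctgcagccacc
chr14:103248551-103248750: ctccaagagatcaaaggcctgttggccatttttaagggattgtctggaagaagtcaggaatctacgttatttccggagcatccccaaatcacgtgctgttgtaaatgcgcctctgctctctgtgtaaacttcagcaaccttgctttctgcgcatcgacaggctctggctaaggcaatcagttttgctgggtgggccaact
chr2:112880501-112880700: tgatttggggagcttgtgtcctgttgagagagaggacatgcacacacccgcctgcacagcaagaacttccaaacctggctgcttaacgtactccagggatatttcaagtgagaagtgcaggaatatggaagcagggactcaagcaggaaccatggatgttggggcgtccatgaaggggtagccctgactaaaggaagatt
The second set shows the AP-1 match nearest the midpoint, in capitals with up to 20 bases on each side, for named gains that held one within the 500 bp at the midpoint. The first 5 were gains in 10A and the other 6 gains in DCIS. A further named DCIS gain with a match, chr1:183608701-183609800, is not shown. The sequences shown are examples chosen after the values were seen. Other named gains held no match, and a named loss in 10A, chr2:213215901-213217800, held one.
chr9:27094867-27094913: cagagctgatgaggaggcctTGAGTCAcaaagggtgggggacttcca
chr2:85963955-85964001: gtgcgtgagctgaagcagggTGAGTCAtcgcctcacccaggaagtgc
chr9:70467122-70467168: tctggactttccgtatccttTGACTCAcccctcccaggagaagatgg
chr20:23258585-23258631: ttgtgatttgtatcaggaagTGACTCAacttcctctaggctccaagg
chr5:148791471-148791517: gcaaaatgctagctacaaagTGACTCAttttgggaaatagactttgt
chr10:106440621-106440667: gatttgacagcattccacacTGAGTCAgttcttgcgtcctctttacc
chr15:70795437-70795483: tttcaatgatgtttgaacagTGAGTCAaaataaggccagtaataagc
chr6:123091151-123091181: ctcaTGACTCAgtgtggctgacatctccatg
chr10:29863148-29863194: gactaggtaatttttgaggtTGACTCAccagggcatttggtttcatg
chr3:43179240-43179286: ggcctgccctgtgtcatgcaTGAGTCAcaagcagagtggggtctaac
chr5:157603590-157603636: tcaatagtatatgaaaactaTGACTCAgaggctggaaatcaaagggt
The last set shows a different kind of sequence, the centre 200 bp of the DCIS regions with the most GGAAT matches on either strand, with each match in capitals. The first lies on chromosome 20 and the other on chromosome 21.
chr20:31241701-31241900: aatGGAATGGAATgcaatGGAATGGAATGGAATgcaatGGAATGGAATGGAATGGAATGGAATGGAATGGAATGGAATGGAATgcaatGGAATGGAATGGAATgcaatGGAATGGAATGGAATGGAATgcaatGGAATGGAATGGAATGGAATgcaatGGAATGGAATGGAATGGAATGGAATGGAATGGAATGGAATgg
chr21:10692751-10692950: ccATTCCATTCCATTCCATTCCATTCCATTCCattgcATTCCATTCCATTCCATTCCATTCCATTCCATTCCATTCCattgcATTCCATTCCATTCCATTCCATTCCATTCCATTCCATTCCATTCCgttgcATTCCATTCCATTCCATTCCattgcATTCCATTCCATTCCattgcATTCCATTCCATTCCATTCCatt

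The isolation given by the annotation was compared with GENCODE release 44, which holds more non-coding genes. Only 69 of the 10A regions (0.902%) and 41 of the DCIS regions (0.624%) overlapped a protein-coding gene of that release. A gene of any type was overlapped by 13.8% and 12.4%, in most cases a long non-coding RNA gene (11.9% and 10.6%), so part of the regions lie in non-coding transcription units that the study's annotation did not use. Distances in the annotation reached up to 10000 bp, and 98.7% and 99.3% of the regions lay at least 10 kb from every protein-coding gene. The median distance from a region's midpoint to the nearest protein-coding transcription start site (TSS) was 80.8 kb in 10A and 84.1 kb in DCIS, beside 19.7 kb and 15.7 kb over all regions. The regions were small, with a median width of 700 bp in 10A and 600 bp in DCIS.

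In 10A the calls among isolated regions were nearly all gains of H3K27ac with shANCO1, while 4897 regions were not called. The deposited log2 fold change, that of 1 representative window of each region with shANCO1 over shCTRL, had a median of 0.72 and quartiles of 0.33 and 1.02, and 87.9% of the values were above 0. At FDR under 0.05 in the authors' csaw test 2719 regions were up (35.6%), beside 43.6% of all 10A regions, and 32 were down (0.418%), beside 0.225%. The up regions had a median log2 fold change of 1.13 and ranged from 0.52 to 2.67, and the down regions had a median of -1.08. A log2 fold change of 2 or more was reached by 40 up regions and of 3 or more by 0.

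In DCIS both directions were present and the changes were larger. The median was 0.67 with quartiles of -0.34 and 1.47, and 67.2% of the values were above 0. At the same threshold 2041 regions were up (31.1%), beside 23.6% of all DCIS regions, and 471 were down (7.17%), beside 4.86%. Both shares were thus above the background in DCIS, while in 10A the up share was below it. The up regions had a median of 1.83 and the down regions a median of -1.84. Of the up regions 818 reached a log2 fold change of 2 and 176 of 3, and of the down regions 186 reached -2 and 45 reached -3.

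**Figure D1:**
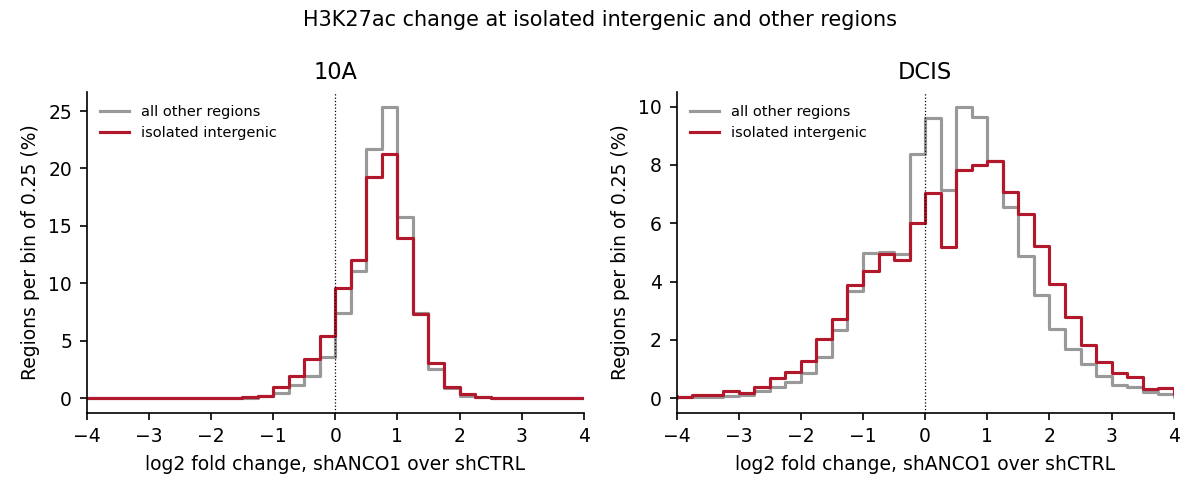
Percentage of regions (y axis) in bins of 0.25 of the log2 fold change of shANCO1 over shCTRL (x axis, drawn from -4 to 4, so the few larger changes are not shown) for isolated intergenic regions (red) and all other regions (grey) of 10A and DCIS. Nearly the whole 10A curve lies right of 0 (87.9% of isolated regions), and the DCIS curve spans both sides with a median of 0.67.

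The zero of these values depends on a normalization that the study does not describe. Over all regions the median log2 fold change was 0.76 in 10A and 0.52 in DCIS. When values were centred on that median and a distance of at least 1 log2 unit from it was required beside the FDR, 101 isolated regions of 10A were higher and 32 lower, and in DCIS 1525 were higher and 471 lower. The FDR still referred to the uncentred zero, so the numbers lower could not rise. Most gains of the isolated regions in 10A thus lay within 1 log2 unit of a shift shared by all regions of the line. Neither the number of reads behind a region nor the spread between libraries was given, so no standard error is printed.

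Calls were more frequent in wider regions, which hold more tested windows, among isolated regions as over the whole tables. In 10A the up share rose from 19.3% of isolated regions with 1 window to 64.8% of those with 20 or more, beside 17.2% and 74.9% of all regions. With 5 to 9 windows it was 33.5% beside 34.2%, and with 10 to 19 windows 51.6% beside 53.6%. The width limit made the widest class unlike, with a median of 2500 bp in isolated and 2900 bp in all 10A regions. The lower up share of isolated regions in 10A was not separated from width. In DCIS the up share of isolated regions went from 28.3% to 36.0%, and their down share from 5.57% to 12.9%. Over all DCIS regions the up share went from 21.9% to 27.5% and the down share from 3.55% to 7.86%. Within the up regions of DCIS 62.0% had every window changed in that direction, beside 32.1% in 10A. Only 2 of the up regions of 10A and 3 of those of DCIS held a window changed the other way.

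Other position classes were compared to see where isolated regions differ, as descriptions without a test, since regions are not replicates. In 10A regions at promoters or exons were up most often among classes of mixed width (50.5%), intronic regions least (34.6%, 0.281% down), and intergenic regions that flank a gene in 40.9%. Isolated regions were close to the intronic ones. In DCIS promoter or exon regions were up least often (17.3%, 3.50% down). There 30.6% of intronic regions were up and 5.59% down, and of regions that flank a gene 31.7% and 6.01%. Isolated regions of 3 kb or wider, which the width limit left out, were called most often. In 10A 75.1% of these 655 were up, and in DCIS 37.3% of 533 were up and 18.0% down.

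**Figure D2:**
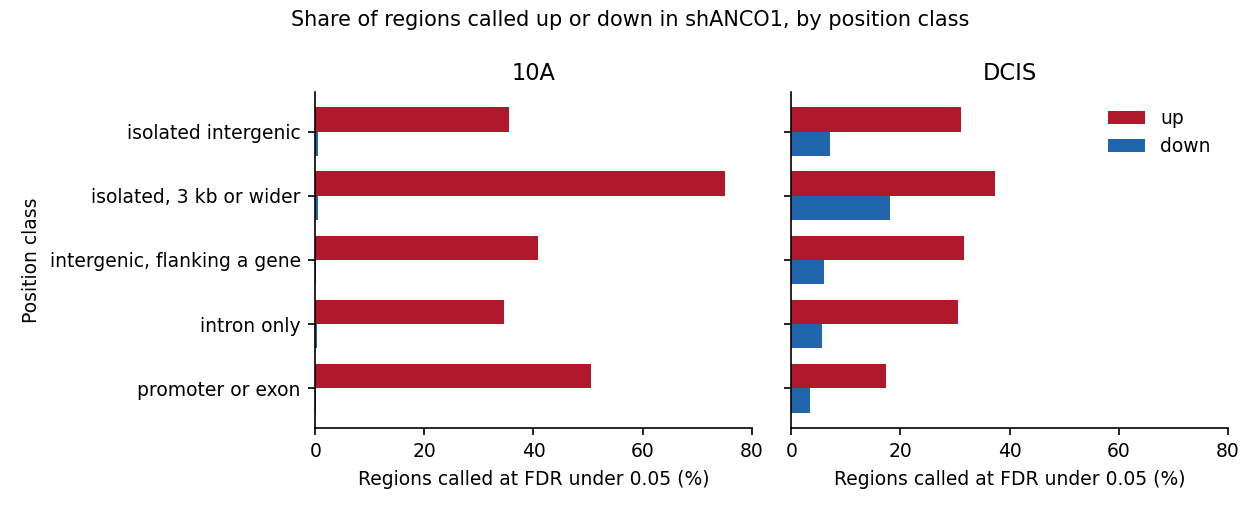
Percentage of regions called up (red) or down (blue) at FDR under 0.05 (x axis, from 0) in each position class (y axis) for 10A and DCIS. Isolated intergenic regions were up at 35.6% and 31.1%, and in DCIS promoter or exon regions stood lower, at 17.3%.

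Distance from genes moved with the calls in DCIS more than in 10A. Among DCIS regions 10 to 25 kb from the nearest protein-coding TSS, 37.5% were up and 5.10% down, with a median log2 fold change of 0.89. Among those 500 kb away or farther 20.8% were up and 8.48% down, with a median of 0.05. In 10A the up share over the same distances was 35.0% and 31.9%. Of the 696 DCIS regions at that distance 113 lay in the repeat blocks described further on, and without them 24.7% were up and 9.43% down, with a median of 0.39.

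Enrichment over input shows which of these regions carried a clear H3K27ac signal at all. A region was counted as enriched where it shared at least 1 bp with a region up over input at FDR under 0.05 in the table of that group. In 10A 32.2% of the isolated regions were enriched with shANCO1 and 13.9% with shCTRL, beside 45.2% and 23.5% of all regions. In DCIS the values were 15.5% and 12.4%, beside 30.3% and 26.98%. Isolated regions thus overlapped an enriched region less often than the tables as a whole, and 66.8% of them in 10A and 78.9% in DCIS overlapped none in either group. A wider region meets an overlap of 1 bp more easily. Isolated regions had median widths of 700 bp in 10A and 600 bp in DCIS, beside 1000 and 900 bp over all regions. Shares at equal width were not compared.

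Called isolated regions, too, were enriched less often than called regions of all classes, again without matching for width. Of the up regions in 10A 55.7% were enriched with shANCO1 and 18.6% with shCTRL, beside 70.0% and 34.6% of the up regions of all classes. Of the isolated ones 1012 were enriched with shANCO1 alone and 2 with shCTRL alone, while 44.2% were enriched in neither group. Of the up regions in DCIS 28.5% were enriched with shANCO1 and 5.73% with shCTRL, beside 38.4% and 14.1% over all classes, and 71.3% in neither. The down regions in DCIS were the mirror image, with 39.7% enriched with shCTRL, beside 50.1% over all classes, and 5.31% with shANCO1. The input tables share libraries with the direct comparison, so these shares are not independent support for the calls.

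The largest gains in 10A, among regions with at least 5 windows, were moderate in size. The region chr5:98309101-98311000, 459 kb from the TSS of RGMB, a coreceptor for bone morphogenetic proteins, had a log2 fold change of 2.58 (FDR 4.27e-11) with 15 of 18 windows up. It was enriched over input in both groups. The region chr9:27094001-27095500, 14.4 kb from TEK, the angiopoietin receptor, followed with 2.48 (FDR 1.85e-07) and all 12 windows up. The region chr13:20387501-20388600, 138 kb from CRYL1, reached 2.37 (FDR 6.84e-09). Both were enriched over input with shANCO1 and not with shCTRL. The lowest FDR among isolated regions of 10A, 9.31e-12, belonged to chr20:23257101-23259900, where the log2 fold change was 1.70 and all 27 windows were up.

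Losses in 10A were few and smaller. The largest among regions with at least 5 windows were chr14:52369101-52370400 with -1.37 (FDR 0.00669), 55.4 kb from PTGER2, a receptor for prostaglandin E2, and chr2:213215901-213217800 with -1.36 (FDR 0.00242), 65.2 kb from IKZF2, a zinc finger factor. At the PTGER2 region only 2 of 9 windows were down, and it was enriched over input in neither group. At the IKZF2 region 13 of 16 windows were down, and it was enriched over input with shCTRL and not with shANCO1. The region chr2:55760401-55763100, 67.9 kb from PNPT1, had -1.19 in 10A with 22 of 26 windows down.

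In DCIS chr10:106439501-106441400, 724 kb from SORCS1, was among the largest gains of regions with at least 5 windows, with a log2 fold change of 5.61 (FDR 8.66e-13) and all 15 windows up. The region chr15:70794701-70796000, 31.8 kb from UACA, had 4.64 (FDR 7.23e-14) with all 11 windows up. Both were enriched over input with shANCO1 alone. The prior count behind the deposited folds was not stated, and folds of this size depend on it. The lowest FDR, 7.12e-15, belonged to chr7:46650401-46652800 with 2.82 and all 21 windows up, 677 kb from TNS3, which links integrins to actin.

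The largest loss in DCIS among such regions was chr14:103248301-103249000, 85.6 kb from EIF5, a translation initiation factor, with -7.39 (FDR 3.71e-13) and all 6 windows down. The regions chr6:14093801-14094800, 23.0 kb from CD83, with -6.70 and chr5:43768901-43770800, 165 kb from NNT, with -6.57 followed. Toward CDH5, the endothelial cadherin, whose TSS lay 142 kb from the first, 3 neighbouring regions over 7.0 kb were all down with a median of -4.13, among them chr16:66223401-66226100 with -4.31 and all 25 windows down (FDR 5.56e-14). The EIF5 and NNT regions and chr16:66223401-66226100 were enriched over input with shCTRL and not with shANCO1, and the CD83 region in neither group. The nearest gene is named as a position only.

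Genes of the neighbourhood were then counted by lists of genes. Inflammatory cytokines and chemokines were the list with the largest up share in 10A, with 25 of 47 isolated regions up (53.2%) around 18 genes, and 0 down. In DCIS 14 of 41 were up (34.1%) and 0 down. For matrix, protease and adhesion genes 24 of 60 were up in 10A and 22 of 46 in DCIS, with 0 and 1 down. For genes of epithelial-mesenchymal transition and TGF-beta signalling 37 of 105 and 20 of 71 were up (35.2% and 28.2%), with 0 and 2 down. Over all isolated regions the up shares were 35.6% and 31.1%.

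Targets of YAP and TEAD had 16 of 61 regions up in 10A and 19 of 50 in DCIS, with 1 and 6 down. Basal and squamous lineage factors had 34 of 131 up and 34 of 112 up (26.0% and 30.4%), with 1 and 7 down. Senescence and cell cycle genes had 15 of 42 and 6 of 31 up, and genes of AP-1 factors 5 of 13 and 1 of 6. Luminal lineage factors were the list in DCIS with more regions down than up, 7 of 29 against 3. Of these 7, 6 were assigned to GATA3, whose 18 DCIS regions lay at a median of 628 kb from its TSS. In 10A 10 of the 29 regions of that list were up and 0 down. Synapse and neural adhesion genes, listed as genes of another cell type, had 20 of 78 up in 10A (25.6%) and 15 of 57 in DCIS (26.3%). Several of these lists rest on a few genes with many regions, and regions near the same gene are not independent.

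Some neighbourhoods are given region by region, chosen after their values were seen. IL1A and IL1B encode the 2 main agonists of the interleukin 1 receptor, and IL37 a related cytokine that dampens inflammation. All 10 isolated regions of DCIS in the 87.3 kb from chr2:112804701 to 112892000 were up, with log2 fold changes from 1.97 to 6.84 and a median of 3.31. The value of 6.84 came from a region with 1 window, and the region with the lowest FDR, chr2:112879901-112881300, had 4.22 (FDR 1.12e-14) with all 11 windows up. The ends of the stretch were set by the DCIS regions. In 10A it held 5 isolated regions, of which 3 were up, with values from 0.57 to 1.22 and a median of 1.05. The ranges of both lines did not overlap, but the difference between lines was not tested. Over all isolated regions, too, up regions of DCIS had the larger median, 1.83 beside 1.13 in 10A. Of the first 4 DCIS regions of the stretch 2 were enriched over input with shANCO1, and of the other 6 also 2. With shCTRL 0 of them were enriched. In 10A chr2:112868401-112870400 was enriched with shANCO1.

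Around CXCL1, a chemokine that draws neutrophils, 6 of 8 isolated regions were up in 10A, with log2 fold changes from 0.74 to 1.83. In DCIS values there ran from -0.58 to 1.37 and 2 of 6 regions were up. Around AREG, the growth factor amphiregulin that acts through the receptor EGFR, 11 of 14 were up in 10A with a median of 1.05 and 6 of 7 in DCIS with a median of 1.58. Upstream of EGFR itself 4 of 9 regions were up in DCIS with a median of 1.11, and 2 of 6 in 10A with a median of 0.74. Around KLF4, a factor of epithelial differentiation, 12 of 21 were up in 10A and 8 of 13 in DCIS, with medians of 0.86 and 1.46, at a median distance of 260 kb from its TSS. Near FOS, which encodes a subunit of AP-1, 5 of 7 were up in 10A with a median of 0.90, and 1 of 4 in DCIS.

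The regions assigned to CDKN2B, an inhibitor of cyclin-dependent kinases, lay 160 to 205 kb from its TSS. All 4 in 10A were up, with values from 1.16 to 1.32, and 2 of 3 in DCIS. KLF5, another epithelial factor, had 6 of 31 regions up in 10A and none down, while in DCIS 8 of 31 were up and 5 down, with values from -3.34 to 2.05. TP63, which encodes the master factor of basal epithelium, had 3 of 17 up and 0 down in 10A, and 5 of 13 up and 1 down in DCIS. Around TGFBR2, a receptor for TGF-beta, 9 of 28 were up in 10A, and 4 of 17 up and 2 down in DCIS.

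Isolated regions came in runs. With gaps of at most 12.5 kb they formed 4627 chains in 10A and 3929 in DCIS, of which 2937 and 2506 held a single region. Among chains of 3 or more, all regions were up in 40 of 694 in 10A and in 58 of 566 in DCIS, and all were down in 0 and 12. Of all isolated regions 35.6% and 31.1% were up, so some chains would be all up without any link between neighbours. How many was not tested, and chains were not counted over all regions. Chains that held both an up and a down region numbered 2 and 21. In 10A the chain chr17:64678501-64733300, 17.5 kb from SMURF2, an inhibitor of TGF-beta signalling, had 10 of 10 regions up with values from 0.90 to 1.53. The longest chain in 10A, 16 regions over 70.3 kb of chromosome 20 101 kb from PTPN1 at the closest, had 4 up. The next, 13 regions over 35.6 kb of chromosome 17 and 684 kb from SOX9, also had 4 up. Chains of 11 and 10 regions near PTPN1 and EVA1A had 1 and 4 up.

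In DCIS the longest chains were of another kind. They held 30 regions over 91.4 kb of chromosome 1 (chr1:143184501-143275900), 27 over 64.4 kb of chromosome 10 (chr10:41850701-41915100), 26 over 65.0 kb of chromosome 4 (chr4:49091701-49156700) and 19 over 42.0 kb of chromosome Y, with 1 region down in each of the 3 former and 1 up in the last. The 3 former are blocks of GGAAT repeats, the unit of satellite DNA beside several human centromeres, as in the chromosome 20 and 21 sequences above. The regions of the chromosome Y chain had a median of 1 GGAAT match and a maximum of 62, and its 1 up region had 31. In DCIS chromosome Y held 38 isolated regions, 23 of them among the repeat-rich regions counted next. In 10A no tested region lay on chromosome Y. Of the chromosome Y chain 0 regions were enriched over input in either group. Whether its reads came from chromosome Y was not tested. Isolated regions with at least 10 GGAAT matches in the 500 bp at the midpoint numbered 191 in DCIS (2.91%) on 12 chromosomes, with a median of 48 matches beside 1 over all isolated regions, and 1 in 10A. Of the 191, 1 was up and 5 down, the median log2 fold change was -0.45, and 0 were enriched over input in either group. Copies of such repeats are near identical, so the place of a read among them is uncertain. The next longest chain, 12 regions 18.0 kb from NFKBIA, which encodes the inhibitor of NF-kB, had 1 up.

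**Figure D3:**
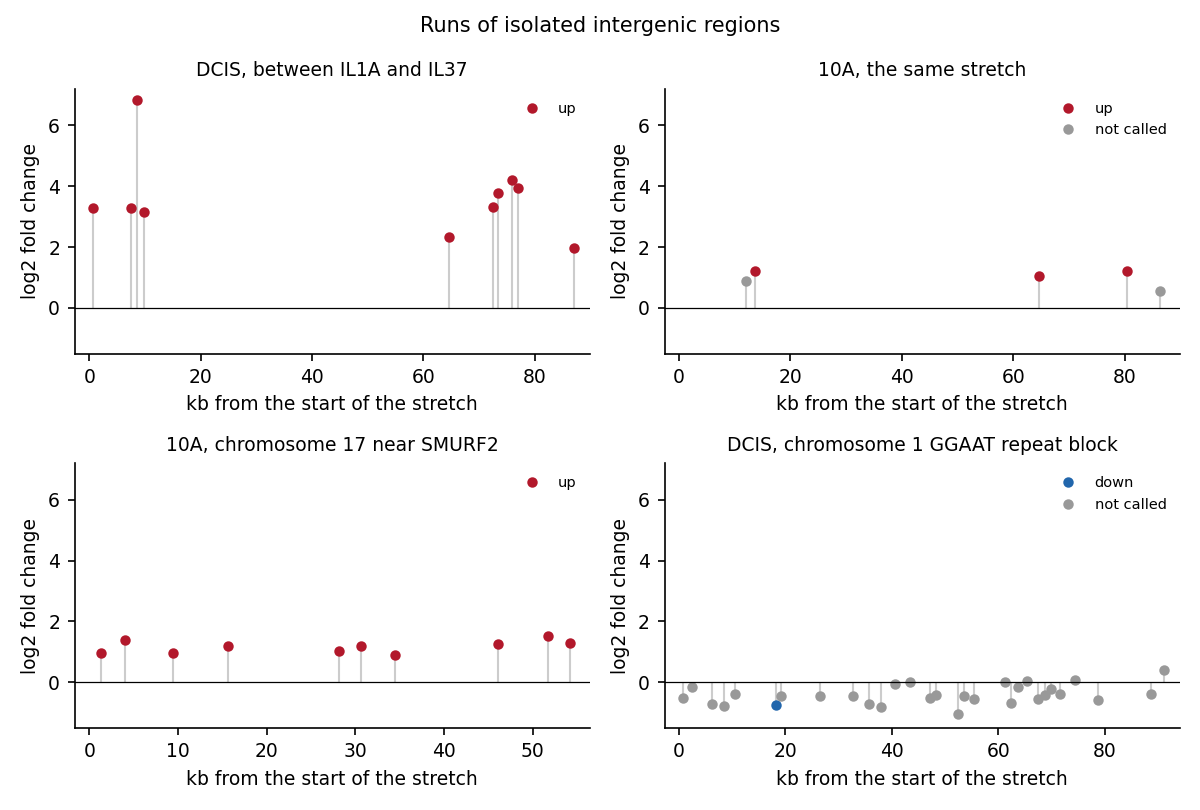
Log2 fold change of shANCO1 over shCTRL (y axis) of each isolated region against the distance of its midpoint from the start of the stretch in kb (x axis), coloured by call, for the interleukin 1 stretch in DCIS and in 10A, the chromosome 17 chain of 10A near SMURF2 and the chromosome 1 repeat block of DCIS. All 10 DCIS regions of the interleukin 1 stretch lie at 1.97 or higher, all 10 regions near SMURF2 lie between 0.90 and 1.53, and the 30 regions of the repeat block centre on -0.45.

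The direct comparisons of both lines share no library, so overlap between them could be described. Of the 10A isolated regions 2871 overlapped an isolated region of DCIS (37.5%), and 2939 of the DCIS regions overlapped one of 10A (44.7%). A region of any class in the other line was overlapped by 43.1% of the isolated regions of 10A, beside 58.2% of all 10A regions, and by 53.1% of those of DCIS, beside 69.5% of all DCIS regions. In DCIS overlap moved with the call. A 10A region of any class was overlapped by 78.8% of the up regions, 44.1% of those not called and 20.4% of the down regions. Put the other way, the 3493 DCIS regions with a 10A partner were up in 46.0% and down in 2.75%, with a median log2 fold change of 1.15. The 3080 with none were up in 14.1% and down in 12.2%, with a median of -0.00. They were also narrower, with a median of 500 bp and 3 windows, beside 800 bp and 6 windows for those with a partner. The split by call was not made over all regions, so the pattern may not be particular to isolated ones. In 10A the overlap with DCIS regions was 45.3% for up regions and 41.8% for regions not called.

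Among the 2871 pairs of overlapping regions 1083 were up in 10A and 1210 in DCIS. Of these, 549 were up in both lines, 508 were up in 10A and not called in DCIS, and 658 were not called in 10A and up in DCIS. Of the pairs up in 10A 50.7% were up in DCIS, beside 37.0% of those not called in 10A. Only 1 pair was down in both, 26 gained in 10A but lost in DCIS, and 3 the reverse. Across pairs Pearson's r between the changes in 10A and DCIS was 0.16 and Spearman's rho 0.16, given as a description since neighbouring regions are not independent.

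Ranked by the smaller of the changes in both lines, the pair with the largest gain lay 33.7 kb from FBXO28, a subunit of ubiquitin ligases, at chr1:224079801-224081100 in 10A, with 2.33 in 10A and 2.55 in DCIS. On chromosome X near MAGEB17 the values were 2.20 and 3.48, and near GSK3B, a kinase of the Wnt pathway, 2.03 and 2.49. Near TEX101 they were 1.95 and 2.07 and near GRID1 1.90 and 3.84. The pair that was down in both was the PNPT1 region, with -1.19 and -2.06. Opposite calls, ranked by the distance between both changes, were led by a region near LMO2, a cofactor of blood cell transcription, with 2.07 in 10A and -3.62 in DCIS. A region near SCARB1, the receptor for high-density lipoprotein, had 1.01 and -4.25, and one near FZD1, a Wnt receptor, 1.67 and -3.26. Regions near ACSL4 and CHSY1 had 1.32 and 1.36 in 10A and -2.98 and -2.40 in DCIS. The reverse was seen near TCIM (-0.88 and 2.04), TMC7 (-1.29 and 1.45) and SPAG16 (-0.90 and 1.40). In 10A the TCIM region held 1 window (FDR 0.0424), and 2 of 13 windows of the TMC7 region were down (FDR 0.0119). The SPAG16 region had an FDR of 0.00432 in 10A. In DCIS the FDR values of the 3 regions were 0.000128, 0.0227 and 0.0262.

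**Figure D4:**
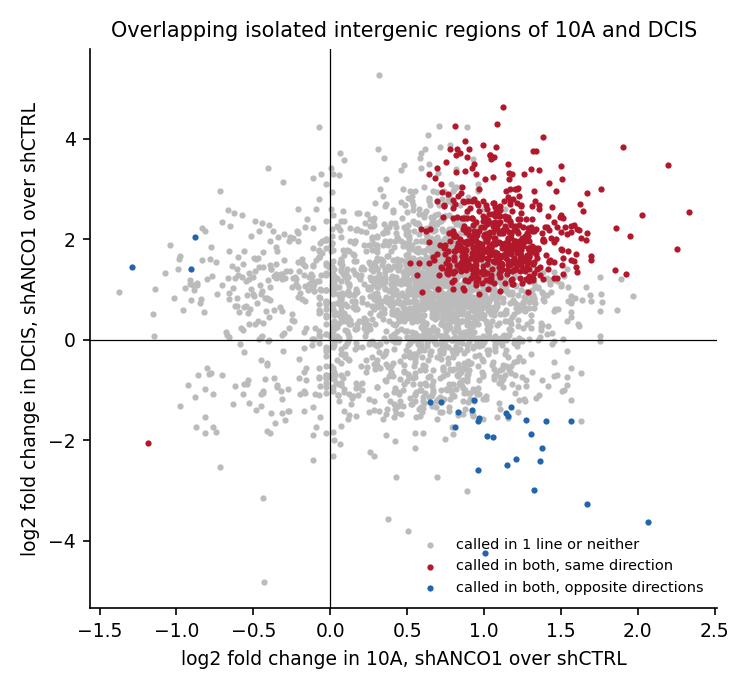
Log2 fold change of shANCO1 over shCTRL in 10A (x axis) and in DCIS (y axis) for the 2871 pairs of overlapping isolated regions. The 549 pairs up in both lines fill the upper right, 1 pair is down in both, and the pairs called in opposite directions (blue), 26 of them gains in 10A and losses in DCIS, lie mostly at the lower right.

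Sequence moved with the calls too, foremost at AP-1. In the 500 bp at the midpoint, which reaches past the edges of narrow regions, TGACTCA or TGAGTCA was present in 24.6% of the isolated regions of 10A and 20.7% of those of DCIS, beside 18.3% and 15.4% of all regions. In 10A it was in 30.8% of the up regions, 21.3% of those not called and 3 of 32 down regions. In DCIS it was in 28.3% of the up regions, 17.9% of those not called and 11.9% of the down regions. This order was not particular to isolated regions. Over all DCIS regions the shares were 25.5%, 12.5% and 9.20%, and in intronic ones 25.9%, 18.0% and 10.2%. For up and not called regions of 10A they were 20.3% and 16.8% over all regions, and 26.6% and 18.9% in intronic ones. Regions with the consensus were up in 44.5% in 10A and 42.4% in DCIS, and regions without it in 32.6% and 28.1%. Down calls in DCIS were 4.11% with and 7.96% without.

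Because wide regions were both called more often and richer in AP-1, the shares were also read within classes of window number. Among DCIS regions with 10 or more windows AP-1 was present in 40.7% of up, 28.9% of not called and 14.9% of down regions, and among those with 1 to 4 windows in 19.9%, 13.3% and 9.89%. In 10A the shares for up and not called regions were 38.01% and 34.9% with 10 or more windows and 20.5% and 14.6% with 1 to 4. The order was thus the same in each class, with a smaller gap in 10A. Across bins of log2 fold change the DCIS share went from 9.14% under -2 to 28.7% between 1 and 2 and 25.6% at 3 or more.

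**Figure D5:**
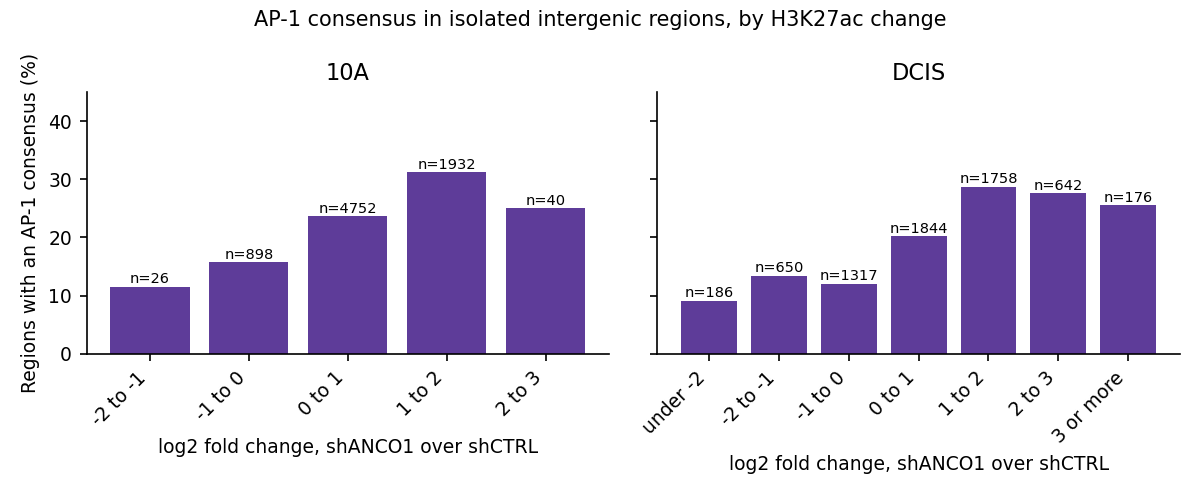
Percentage of isolated intergenic regions with an AP-1 consensus in the 500 bp at the midpoint (y axis, from 0) by log2 fold change of shANCO1 over shCTRL (x axis), with the number of regions above each bar. The share is 31.2% in 10A and 28.7% in DCIS for changes between 1 and 2, beside 15.7% and 12.0% for changes between -1 and 0.

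Other consensus sequences were read in the same way. TEAD, GGAATGC or GGAATGT, was in 16.3% of up and 16.7% of not called regions in 10A, and in 16.5% and 18.2% in DCIS. Its letters begin with GGAAT, and 67.0% of the repeat-rich DCIS regions held it, beside 16.1% of the other isolated regions. Of the 191 repeat-rich regions 185 were not called, so they raised the not called share in DCIS. The shares by call were not recomputed without them, so the order of up and not called regions in DCIS is not settled. NF-kB, GGGANTTTC, was in 3.14% of up and 1.92% of not called regions in DCIS. Regions with it were up in 41.8% in DCIS, beside 30.8% of those without, and in 39.6% in 10A, beside 35.4%. The next 2 pairs of shares are for the same calls of DCIS. STAT3, TTCCNGGAA, was in 2.01% and 1.60%. A pair of CATG cores with 6 bases between, the shape of a p53 or p63 site, was in 3.04% and 2.19%. The lines differed here. Regions with it were up in 27.2% in 10A, beside 35.8% of those without, and in 38.75% in DCIS, beside 30.9%. The CTCF consensus was in 42 DCIS regions, of which 2 were up (4.76%, beside 31.2% of regions without it) and 2 down. In 10A it was in 36 regions, of which 15 were up (41.7%, beside 35.5% of regions without it) and 0 down. The GRHL consensus AACCGGTT was in 7 regions of 10A and 9 of DCIS. A match describes letters and does not show that a factor was bound.

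In base composition isolated regions were close to intronic ones. The median GC content of the 500 bp was 43.2% in 10A, beside 42.4% in intronic regions and 46.4% over all regions. In DCIS it was 45.2%, beside 45% and 49.6%. The median number of CpG dinucleotides was 4 in isolated and intronic regions of 10A and 5 in both classes of DCIS, beside 6 and 8 over all regions. Up and down regions of DCIS were close to each other in both, at 45.2% and 44.4% GC and 4 and 5 CpG.

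Chromosomes differed in both respects. Isolated regions made up 1.76% to 23.8% of the regions of a chromosome in 10A, lowest on chromosome 19 and highest on chromosome 18. In DCIS chromosome 9 had the largest up share among chromosomes with at least 100 isolated regions, 120 of 250 (48.0%), beside 23.5% of all regions of that chromosome. In 10A the up share on chromosome 9 was 34.4%.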

How the data were processed

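H3K27ac ChIP-seq of 24 libraries in 8 groups of 3 was used. The authors mapped the reads with BWA and Rsubread onto GRCh38, deduplicated them with samtools, tested windows in csaw and placed genes with ChIPpeakAnno. Normalization, window filter and merging distance were not given in the sources used here. The authors deposited 6 tables (shANCO1 over shCTRL in each line, and each immunoprecipitated group over input) with 1 line per region. The deposited log2 fold change is that of a representative window, the deposited p-value and FDR are per region over the whole table, and the deposited numbers of windows count tests, not reads. No value per library was given, so depth, replicate spread and any interval that needs them are unknown, and no test was added: a region was called at FDR under 0.05 in the authors' direction, leaving out mixed ones. These columns are the authors' own comparison and are printed as their deposited values because the tables hold nothing else.

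Members, lists and named regions were chosen with earlier results of these data known. Named regions were, per line and direction, the 10 with the largest absolute log2 fold change among called regions with at least 5 windows, the 5 with the lowest FDR per line, up to 5 pairs called in both lines for each pattern, and the 5 longest chains per line; the text gives the leading ones. Overlap was at least 1 bp, and a partner was the region with the most shared bases. TSS were those of basic protein-coding transcripts in GENCODE release 44, and sequence came from hg38, in which 0 regions ran past a chromosome end. Motifs were sought on both strands by exact letters. The reference used here is upper case throughout, so repeat masking was not used. Coordinates are 1-based on GRCh38. Wilson intervals of shares and order-statistic intervals of medians, at 95%, served only to judge whether an alternative moved a value, and cover counting error alone. Computations used Python 3.11.15, pandas 2.3.3, NumPy 2.4.6 and SciPy 1.17.1, and helper functions were tested on simulated data. Alternatives covered the FDR, a fold limit, direction, windows, width, distance from reference genes, centring, overlap, input enrichment and motif window. Leaving out the repeat-rich regions and a distance of 10000 bp from reference genes were added after the data were seen. Some named regions are not reported here.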

Additional observations from a re-analysis of the deposited data

How the results depend on the processing

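Of 76 alternative values over 14 results, 41 stayed within 1.5 times the reported count or within the interval of the reported share or median, and 35 moved. The 2719 regions up in 10A became 1554 at FDR under 0.01, 1152 at a width under 1000 bp and 101 when centred on the median of all regions with at least 1 log2 unit required, an alternative under which down counts could not rise. The 32 down in 10A became 12 and 65 at FDR under 0.01 and 0.1, 21 with a fold limit of 1 log2 unit, 12 with at least 5 windows and 21 under 1000 bp. In DCIS the 2041 up became 1123 with at least 5 windows and 1246 under 1000 bp, and the 471 down became 282 at FDR under 0.01, 289 with at least 5 windows and 271 under 1000 bp. The last 2 kinds of alternative hold fewer regions by construction. The median log2 fold change in 10A was 0.82 with at least 5 windows, 0.59 under 1000 bp and 0.74 without a width limit, and in DCIS 0.81, 0.53 and, without the repeat-rich regions, 0.71. The share of regions shared with the other line was 21.1% in 10A and 24.6% in DCIS at a reciprocal overlap of 50%, and 39.4% and 46.8% with midpoints within 1000 bp. With at least 50% of the region covered, up regions enriched over input were 26.8% with shANCO1 and 2.17% with shCTRL in 10A, and 7.40% and 0.490% in DCIS. At an input FDR under 1e-10 the shares were 43.1%, 7.54%, 24.5% and 2.50%. AP-1 was in 14.9% of up regions in 10A and 11.9% in DCIS in 200 bp, and in 51.0% and 51.8% in 1000 bp, beside 8.62% and 7.24%, and 43.8% and 33.3%, of regions not called. No paired analysis was possible because the tables hold no value per library, and leaving out a replicate was not run for the same reason. Depth could not be read from these tables, so which absent calls it limits is unknown.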

Other observations

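Among the chains of isolated regions in which every region moved one way in DCIS, 12 were losses. On chromosome 10, 199.6 kb from MGMT, which encodes a DNA repair enzyme, 4 of 4 regions were down with a median log2 fold change of -2.75. On chromosome 21, 1626 kb from the nearest protein-coding TSS, that of MRPL39, 4 of 4 were down with a median of -3.04. Near RALGAPA2 and FOXI1 the medians were -1.81 and -2.04, each over 4 regions. Gains of the same kind stood 43.8 kb from HOXB1 (3 of 3, median 3.83), 386 kb from MCPH1 (4 of 4, median 4.31) and, 374 kb from ADARB2, on chromosome 10 (6 of 6, median 3.24). In 10A all 5 regions of a chain on chromosome 12, 1007 kb from TMEM132C, were up with a median of 1.51. In the HOXB1, MCPH1, ADARB2 and FOXI1 chains 0 regions were enriched over input in either group. With shCTRL 3 regions of the MGMT chain, 3 of the MRPL39 chain and 2 of the RALGAPA2 chain were enriched. Of the TMEM132C chain 4 regions were enriched with shANCO1 and 1 with shCTRL. All these chains were chosen after their values were seen.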
